A study of Homo sapiens with 6 samples.

Results

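The genes described here are 38 chaperones, co-chaperones and heat shock factors of the cytosol and the mitochondrion, taken by name from a table of 25071 genes counted in PLC/PRF/5 cells, an established line from a human hepatoma. All 38 were found in the table, and all 38 were among the 15816 genes that passed the filter on low counts. RNA was sequenced from 3 libraries of cells transfected with a plasmid that overexpresses ARD1 and from 3 libraries of cells transfected with a control vector, all harvested 48 hours after transfection. ARD1 and NAA10 are names of the same gene, which encodes the enzyme of the NatA complex that acetylates protein N-termini, and the title of the study links it to escape from ferroptosis. The sources used here give neither the promoter of the plasmid nor any sort for transfected cells. Whether libraries of the same group were grown as separate cultures is not given, so the p-values reflect library-to-library spread that may be technical only.

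Molecular chaperones keep proteins from aggregating and help them fold. HSP70 proteins bind exposed hydrophobic stretches in a cycle of ATP hydrolysis that J proteins (the DNAJ family) start and that nucleotide exchange factors (HSP110 and BAG proteins) reset, and HSP90 takes over clients such as kinases and steroid receptors with the help of the adaptor STIP1. Small heat shock proteins hold unfolded proteins without ATP, the CCT ring folds actin and tubulin, and the mitochondrion has its own HSP70, HSP90 and chaperonin. Heat shock factor HSF1 binds heat shock elements, inverted repeats of the letters GAA, and raises the stress-inducible chaperones when unfolded proteins accumulate.

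The libraries held between 21857327 and 25011357 counts. NAA10 stood at 355, 400.2 and 294 CPM (counts scaled for library size with TMM factors) in the ARD1 libraries, against 35.6, 32.2 and 36.2 CPM in the control libraries. Of 11 hepatocyte and hepatoma markers 7 passed the count filter, among them albumin (ALB), the keratins KRT8 and KRT18 and the liver transcription factor HNF4A, while APOA1, APOA2, TTR and GPC3 did not. The 7 summed to between 1879 and 1956 CPM in the ARD1 libraries and between 3097 and 3868 CPM in the control libraries, with 3 of them higher and 4 lower. Most of that sum was KRT8. ALB stood at 34.3, 40.8 and 33.8 CPM in the ARD1 libraries, against 308, 316 and 321 CPM in the control libraries (log2 fold change -3.12, adjusted p = 5.78e-13), and AFP, the fetal albumin relative, was also lower (-2.42, adjusted p = 3.80e-06). APOB, SERPINA1 and HNF4A were higher. Of 5 markers each, the endothelial list had 3 genes higher and 1 lower, at 90.0 to 103 CPM in the ARD1 libraries and 69.2 to 82.2 CPM in the control libraries. Its lower gene was CDH5 (log2 fold change -8.85). CDH5 had 1, 0 and 4 counts in the ARD1 libraries and 777, 642 and 747 in the control libraries. PECAM1, KDR and VWF were higher, at 0.82, 2.05 and 5.29, and VWF had 0, 0 and 2 counts in the control libraries. The fibroblast list had 1 higher and 2 lower, at 17.1 to 19.7 CPM in the ARD1 libraries and 77.5 to 98.0 CPM in the control libraries. COL3A1 and LUM were lower, at log2 fold changes of -4.80 and -2.01, and COL1A1 was higher, at 1.55. The immune list had 0 higher and 2 lower, PTPRC (log2 fold change -4.91) and ITGAM (-1.20). These 2 summed to 5.08 to 5.90 CPM in the ARD1 libraries and 13.5 to 14.5 CPM in the control libraries. MS4A1 had no entry among the genes counted. The part of these markers in the results below was not tested.

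Of the 38 genes, 7 were higher and 14 lower in the ARD1 libraries in edgeR's quasi-likelihood test at a Benjamini-Hochberg adjusted p under 0.05, and 17 did not pass. Across all 15816 genes tested 64.6% passed, 32.4% higher and 32.2% lower, so 55.3% of the chaperone genes passing is no larger a share than in the table as a whole. Their median log2 fold change was -0.08, beside 0.03 over all genes tested. The groups of libraries did not overlap in CPM for 26 of the 38, or 68.4%, against 69.6% of all genes. In bulk RNA, fewer cells that express a gene and less of its RNA per cell cannot be told apart. HSP70, HSP110, HSP90 and small heat shock genes, with the co-chaperone STIP1, made up 10 of the 14 that fell, J proteins made up 4 of the 7 that rose, and most CCT and BAG genes did not pass. Counting only changes of 1 or more on the log2 scale, HSPA13 and DNAJB4 rose and HSPA1A, HSPA2, HSPB1 and CRYAB fell, where 9.71% of all genes rose and 11.8% fell by that much. Some of these genes reached that size only in some settings, as given below. In the plot of members by library, control replicate 1 lies apart from the other controls for many genes. It was the control farthest from the control median for 31 of the 38 genes, control replicate 2 for 2 and control replicate 3 for 5.

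**Figure D1:**
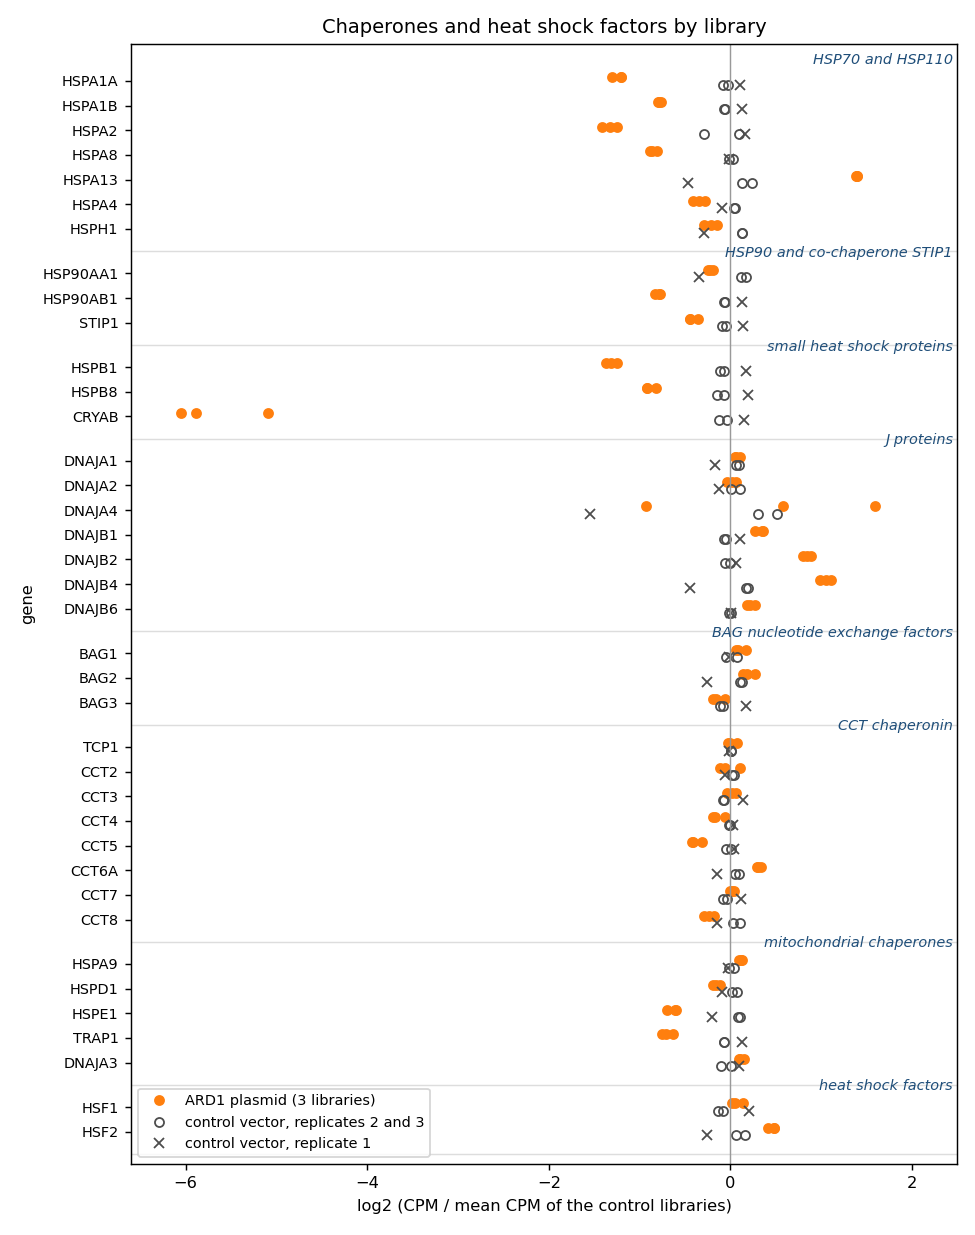
Level of each of the 38 genes in each library as log2 of its CPM over the mean CPM of the 3 control libraries, grouped by class. Filled circles are the ARD1 libraries, open circles control replicates 2 and 3, and crosses control replicate 1. The HSP70, HSP90 and small heat shock genes lie mainly to the left of 0 in the ARD1 libraries, except HSPA13, and the CCT genes lie near 0.

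In the HSP70 and HSP110 class 5 of 7 genes fell, 1 rose and 1 did not pass, with a median log2 fold change of -0.78. HSPA8 encodes the constitutive cytosolic HSP70 and lies on the minus strand of chromosome 11, from 123057489 to 123063230 (gene positions are those of GENCODE 29 in build GRCh38). It had 812, 854 and 819.6 CPM in the ARD1 libraries, against 1484, 1483 and 1522 CPM in the control libraries. The 3 ARD1 libraries all lay far below the 3 controls, with a log2 fold change of -0.85 (SE 0.0646, adjusted p = 3.00e-08). HSPA1A, a stress-inducible HSP70 on chromosome 6 at 31815464 to 31817946 on the plus strand, had 92.3, 92.5 and 86.3 CPM in the ARD1 libraries and 230.3, 201 and 209 CPM in the control libraries. The groups did not overlap, and the log2 fold change was -1.24 (SE 0.0742, adjusted p = 2.27e-09), or 2.36-fold lower. Its neighbour HSPA1B, at 31827735 to 31830255 on the same strand, had 79.98, 78.7 and 78.0 CPM in the ARD1 libraries and 148, 129 and 130.3 CPM in the control libraries (log2 fold change -0.78, SE 0.0744, adjusted p = 3.39e-07). The groups did not overlap for HSPA1B either. The transcripts of this pair are near copies. Of all stretches of 75 bases in the HSPA1A transcript 71.2% also occur in HSPA1B, and 36.5% of HSPA1B exon bases are shared with ENSG00000285565 on the same strand, so how their counts divide between these genes is uncertain.

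HSPA2, an HSP70 best known from the testis, averaged 6.42 ± 0.350 CPM in the ARD1 libraries and 16.1 ± 2.56 CPM in the control libraries (SD, n = 3 each), with a log2 fold change of -1.33 (SE 0.134, adjusted p = 6.45e-07). HSPA4, an HSP110 protein that exchanges nucleotide on HSP70, fell by less, at 154 ± 6.95 CPM in the ARD1 libraries and 196 ± 10.6 CPM in the control libraries (-0.34, adjusted p = 0.000602). With library totals in place of TMM factors HSPA4 did not pass (-0.08, adjusted p = 0.330, the highest of 17 other settings, the lowest being 2.78e-09). Its relative HSPH1 had 82.8, 78.5 and 86.6 CPM in the ARD1 libraries and 78.5, 105 and 105 CPM in the control libraries. Control replicate 1 lay level with the lowest ARD1 library and the other controls above all of them, and HSPH1 did not pass (-0.22, adjusted p = 0.0700). It passed as lower in 7 of the 17 other settings. With all libraries these included RLE scaling (adjusted p = 0.0481), DESeq2 (0.0454), no count filter (0.0315) and GC and length offsets (7.96e-06). Without control replicate 1 the log2 fold change of HSPH1 was -0.36 (adjusted p = 4.13e-07), and the highest adjusted p, with library totals, was 0.756. HSPA13, an HSP70 relative associated with microsomes, went the other way, with 56.7, 57.1 and 57.0 CPM in the ARD1 libraries and 15.8, 25.7 and 23.8 CPM in the control libraries. All ARD1 values were above all controls, at a log2 fold change of 1.39 (SE 0.132, adjusted p = 3.54e-07).

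Both cytosolic HSP90 genes were among the most counted of the 38. HSP90AB1, the constitutive form (chromosome 6, 44246166 to 44253888, plus strand), had 833, 843 and 809 CPM in the ARD1 libraries and 1572, 1386 and 1369 CPM in the control libraries. The groups were well apart, with a log2 fold change of -0.80 (SE 0.0723, adjusted p = 2.02e-07). HSP90AA1, the stress-inducible form (chromosome 14, 102080738 to 102139699, minus strand), had 713, 722 and 740.3 CPM in the ARD1 libraries and 664, 916 and 953 CPM in the control libraries. Control replicate 1 lay below every ARD1 library and the other controls above them. HSP90AA1 did not pass over all libraries (-0.22, SE 0.106, adjusted p = 0.0829) and passed as lower in 6 of the 17 other settings. With all libraries these included DESeq2 (adjusted p = 0.0467), no count filter (0.0188) and GC and length offsets (0.00996). Without control replicate 1 the log2 fold change of HSP90AA1 was -0.38 (adjusted p = 3.96e-10), and the highest adjusted p, with library totals, was 0.781. STIP1, which hands clients from HSP70 to HSP90, averaged 395 ± 13.8 CPM in the ARD1 libraries and 528 ± 46.0 CPM in the control libraries (SD, n = 3 each; -0.42, adjusted p = 0.000178). The fall of STIP1 was smaller with library totals (-0.15, adjusted p = 0.0432, the highest of the other settings, the lowest being 3.67e-09) and with GC and length offsets (-0.20).

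The 3 small heat shock genes among the members all fell. HSPB1 encodes HSP27 (chromosome 7, 76302544 to 76304295, plus strand) and had 242, 254 and 233 CPM in the ARD1 libraries, against 677, 557 and 571 CPM in the control libraries. Every control lay above every ARD1 library, and the log2 fold change was -1.31 (SE 0.0817, adjusted p = 3.60e-09). With trends on GC content and transcript length removed it was -0.84, and it passed as lower in each setting tried. HSPB8, which works with BAG3 in the removal of aggregates by autophagy, had 74.2, 79.3 and 74.1 CPM in the ARD1 libraries and 160.3, 127 and 134 CPM in the control libraries (-0.89, SE 0.0875, adjusted p = 5.07e-07). CRYAB, the alpha-B crystallin (chromosome 11, 111908565 to 111923722, minus strand), had 6, 13 and 7 counts in the ARD1 libraries and 405, 321 and 361 counts in the control libraries. That is 0.251, 0.487 and 0.282 CPM in the ARD1 libraries and 18.4, 15.3 and 16.2 CPM in the control libraries and so 47.6-fold lower with ARD1 plasmid (log2 fold change -5.57, SE 0.207, adjusted p = 1.43e-11). This gene fell furthest of the 38. Of its exon bases 20.6% lie opposite exons of HSPB2 and HSPB2-C11orf52, and whether strand was used in counting is not given in the sources used here.

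**Figure D2:**
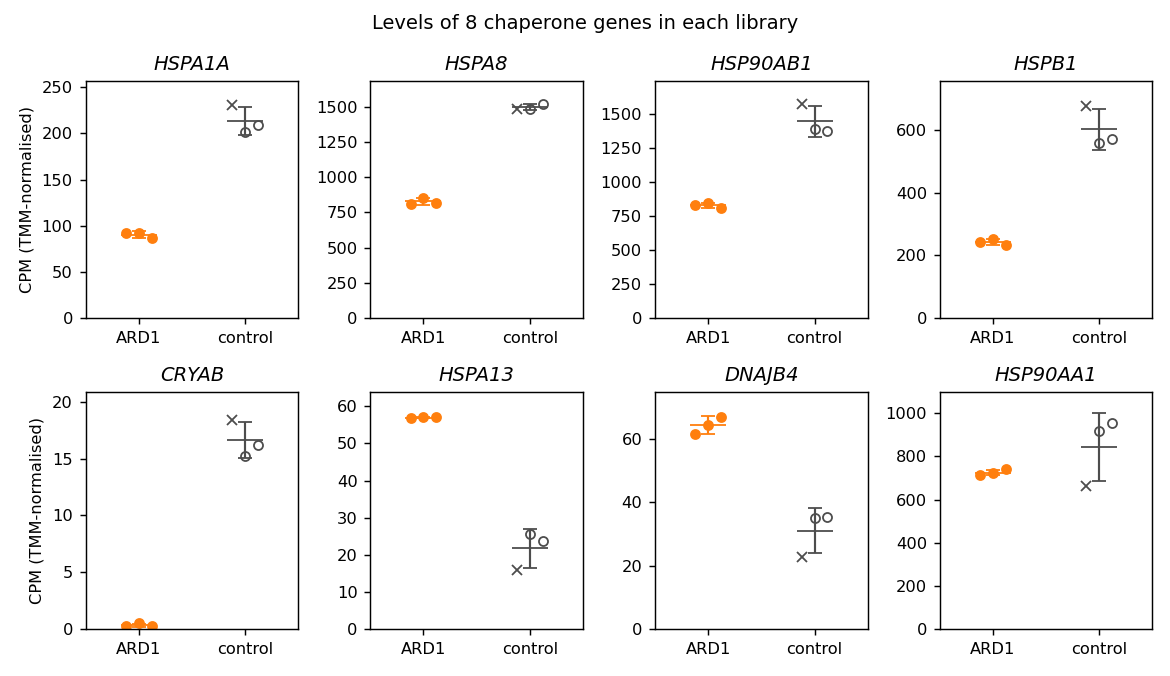
CPM of 8 chaperone genes in each ARD1 library (left, filled) and each control library (right, open circles, with control replicate 1 as a cross). Horizontal bars are means and error bars are SD over 3 libraries, and each axis starts at 0. HSPA1A, HSPA8, HSP90AB1, HSPB1 and CRYAB are lower and HSPA13 and DNAJB4 higher in the ARD1 libraries, while for HSP90AA1 the groups overlap through control replicate 1.

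The bases before the transcription start are shown for some of the members because heat shock factors can bind there. Whether these factors had a part in the changes was not tested. RefSeq promoters (GRCh38.p14, 250 bases before to 50 after a start) matched 35 of the 38 genes, with 48 starts. CRYAB, which fell furthest, HSF1 and CCT6A had no promoter entry and are not in the counts below. The letters searched were GAANNTTC and TTCNNGAA, each of which reads the same on both strands, and the triple repeat GAANNTTCNNGAA with its complement TTCNNGAANNTTC, which contains both shorter motifs. The triple repeat was present in 0.490% of all 35116 promoters and in 12.5% of the 48. It was found for 6 genes, HSPA8, HSP90AA1, HSP90AB1, DNAJA1, DNAJB6 and HSPD1. Of these, HSPA8 and HSP90AB1 fell, DNAJB6 rose, and HSP90AA1, DNAJA1 and HSPD1 did not pass. A shorter motif was present in 13.5% of all promoters and in 41.7% of the 48, over 19 genes, of which 7 fell, 3 rose and 9 did not pass. Beside these, 36.8% of the 38 members fell and 18.4% rose, and 32.2% of all genes tested fell and 32.4% rose. A match is a description of the letters and not of binding. The 250 bases before the start are given 5′ to 3′ on the gene's strand, with every GAANNTTC or TTCNNGAA in capitals. For HSP90AB1 and HSP90AA1, which have more than 1 start in the table, the start with the triple repeat is shown. Most of the genes shown fell, so the choice does not reflect how the genes with a motif divided. DNAJA1 and HSPD1, which hold the triple repeat and did not pass, are not shown. Neither is DNAJB1, which holds GAANNTTC and rose. RefSeq starts can differ from the GENCODE bounds given with the genes.
HSPA1A (chr6:31815293-31815542, plus strand): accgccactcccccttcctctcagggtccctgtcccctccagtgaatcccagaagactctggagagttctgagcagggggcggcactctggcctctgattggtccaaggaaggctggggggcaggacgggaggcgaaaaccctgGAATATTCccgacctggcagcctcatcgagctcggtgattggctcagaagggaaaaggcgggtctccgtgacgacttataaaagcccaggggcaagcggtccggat
HSPA8 (chr11:123062137-123062386, minus strand): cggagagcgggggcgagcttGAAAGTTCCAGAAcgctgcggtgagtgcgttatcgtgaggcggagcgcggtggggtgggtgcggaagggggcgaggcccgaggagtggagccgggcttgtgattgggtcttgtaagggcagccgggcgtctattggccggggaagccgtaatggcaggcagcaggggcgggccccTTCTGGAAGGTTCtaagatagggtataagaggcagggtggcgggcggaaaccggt
HSP90AB1 (chr6:44247693-44247942, plus strand): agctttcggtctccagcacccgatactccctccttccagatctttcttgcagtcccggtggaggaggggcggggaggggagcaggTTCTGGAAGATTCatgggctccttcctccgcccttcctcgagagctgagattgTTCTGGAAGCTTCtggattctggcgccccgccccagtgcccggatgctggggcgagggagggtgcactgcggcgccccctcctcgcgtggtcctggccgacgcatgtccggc
HSP90AA1 (chr14:102087045-102087294, minus strand): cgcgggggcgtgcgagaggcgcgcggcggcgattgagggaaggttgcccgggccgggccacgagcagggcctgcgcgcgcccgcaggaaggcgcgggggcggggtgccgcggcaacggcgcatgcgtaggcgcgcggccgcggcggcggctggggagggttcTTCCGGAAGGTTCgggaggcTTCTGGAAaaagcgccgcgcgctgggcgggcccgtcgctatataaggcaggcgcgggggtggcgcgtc
HSPB1 (chr7:76302423-76302672, plus strand): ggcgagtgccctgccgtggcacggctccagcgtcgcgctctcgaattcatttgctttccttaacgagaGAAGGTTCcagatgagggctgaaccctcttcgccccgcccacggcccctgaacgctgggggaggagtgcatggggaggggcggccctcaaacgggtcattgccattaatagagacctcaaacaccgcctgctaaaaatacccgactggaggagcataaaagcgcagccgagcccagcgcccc
DNAJB6 (chr7:157336754-157337003, plus strand): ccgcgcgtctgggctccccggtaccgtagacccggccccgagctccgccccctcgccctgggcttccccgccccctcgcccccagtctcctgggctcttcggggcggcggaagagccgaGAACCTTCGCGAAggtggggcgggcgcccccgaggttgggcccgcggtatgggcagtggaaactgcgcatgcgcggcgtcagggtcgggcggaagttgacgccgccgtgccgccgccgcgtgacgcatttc
In HSPA1A the capital letters begin 106 bases before the start, and the same 250 bases of HSPA1B were 93.6% identical to those of HSPA1A. HSPA8 held a triple repeat at 230 and at 55 bases before its start, HSP90AB1 at 165 and at 112, HSP90AA1 at 88 and DNAJB6 at 131. HSPB1 held a single shorter motif at 182 bases. Genes with the triple repeat thus appear among those that fell, among those that rose and among those that did not pass.

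The J proteins, which deliver clients to HSP70 and start its ATP hydrolysis, had 4 of 7 genes higher, 0 lower and 3 that did not pass. Their median log2 fold change was 0.33. DNAJB4 had 61.5, 64.6 and 67.1 CPM in the ARD1 libraries and 22.9, 34.9 and 35.5 CPM in the control libraries. The ARD1 libraries were all above the controls (1.05, SE 0.128, adjusted p = 4.65e-06), and control replicate 1 was the lowest control. Without it the log2 fold change was 0.86. DNAJB2, a J protein with a role in clearing misfolded proteins through the proteasome, had 59.6, 61.6 and 58.1 CPM in the ARD1 libraries and 34.8, 33.2 and 31.9 CPM in the control libraries (0.84, SE 0.0775, adjusted p = 2.45e-07). DNAJB1, the heat-inducible HSP40, had 320.0, 317 and 302 CPM in the ARD1 libraries and 269, 238 and 242 CPM in the control libraries. It rose by 0.33 on the log2 scale (SE 0.0704, adjusted p = 0.000897), the opposite direction to HSPA1A, HSPA1B and HSPB1, which like DNAJB1 are classical heat shock genes. DNAJB6, which slows the aggregation of polyglutamine proteins, averaged 179 ± 5.38 CPM in the ARD1 libraries and 153 ± 1.52 CPM in the control libraries (SD, n = 3 each; 0.22, adjusted p = 0.00765). Without control replicate 2 DNAJB6 did not pass (adjusted p = 0.0610, the highest of the other settings, the lowest being 1.48e-05).

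DNAJA1 and DNAJA2, general cytosolic partners of HSP70, did not pass, at log2 fold changes of 0.08 (adjusted p = 0.394) and 0.02 (adjusted p = 0.868). DNAJA1 averaged 482 ± 9.10 CPM in the ARD1 libraries and 457 ± 43.2 CPM in the control libraries. DNAJA4 was barely counted, with 5, 16 and 30 counts in the ARD1 libraries and 3, 12 and 11 counts in the control libraries (0.75, SE 0.581, adjusted p = 0.271), so a difference was not detectable at this depth. The DNAJA4 value ran from 0.05 without ARD1 replicate 3 to 1.17 without ARD1 replicate 1, and was 0.33 without control replicate 1. With library totals DNAJA1 and DNAJA2 passed as higher, at 0.34 and 0.28.

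The BAG nucleotide exchange factors had 0 of 3 genes past the threshold. BAG3, which couples HSP70 to autophagy and is itself stress-inducible, had 90.3, 96.5 and 88.2 CPM in the ARD1 libraries and 114, 95.0 and 93.0 CPM in the control libraries (-0.13, SE 0.0846, adjusted p = 0.182). Its groups overlapped. Removing GC and length trends turned its direction, to 0.14 (adjusted p = 0.0434), and over the other settings the adjusted p reached 0.434. BAG1, which links HSP70 to the proteasome, averaged 43.2 ± 1.74 CPM in the ARD1 libraries and 40.2 ± 1.74 CPM in the control libraries (0.10, adjusted p = 0.261). BAG2, which restrains the ubiquitin ligase STUB1, averaged 36.3 ± 1.69 CPM in the ARD1 libraries and 31.6 ± 4.58 CPM in the control libraries (0.20, adjusted p = 0.105). The BAG2 value was 0.07 without control replicate 1. With library totals BAG1 and BAG2 passed as higher, at 0.37 and 0.46. Exons of RAB23 and ZNF451-AS1 lie opposite 44.2% of the exon bases of BAG2.

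The CCT chaperonin is a double ring in which each ring holds 8 different subunits. Its 8 genes stayed within a narrow range, from -0.38 to 0.31 on the log2 scale with a median of -0.00297, and 5 of them did not pass. Their summed level was 2446, 2563 and 2425 CPM in the ARD1 libraries and 2544, 2460 and 2457 CPM in the control libraries, and the groups overlapped. CCT5 had 162, 173 and 161 CPM in the ARD1 libraries and 221, 218 and 209 CPM in the control libraries. It was lower in every ARD1 library (-0.38, SE 0.0671, adjusted p = 0.000150). CCT8 averaged 129 ± 4.64 CPM in the ARD1 libraries and 152 ± 13.4 CPM in the control libraries (SD, n = 3 each; -0.24, adjusted p = 0.0143). CCT6A had 389, 400.0 and 386 CPM in the ARD1 libraries and 284, 327 and 337 CPM in the control libraries, higher in every ARD1 library (0.31, SE 0.0741, adjusted p = 0.00196). The remaining subunits TCP1, CCT2, CCT3, CCT4 and CCT7 had log2 fold changes of 0.01, -0.02, 0.02, -0.14 and 0.02. With library totals CCT5 (-0.12, adjusted p = 0.0902) and CCT8 (0.03, adjusted p = 0.787) no longer passed, and without ARD1 replicate 1 CCT8 did not pass (adjusted p = 0.0790). With library totals TCP1 (0.28), CCT2 (0.24), CCT3 (0.29) and CCT7 (0.29) passed as higher, so that 5 of the 8 genes were higher and 0 lower. Over the other settings the adjusted p went down to 9.44e-09 for CCT5 and 7.32e-07 for CCT8. Exons of ENSG00000271980 lie opposite 30.1% of the exon bases of CCT5.

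Of the 5 mitochondrial chaperones 2 fell and 3 did not pass. TRAP1, the mitochondrial HSP90, had 76.5, 80.9 and 74.2 CPM in the ARD1 libraries and 138, 120.0 and 119 CPM in the control libraries. The groups did not overlap (-0.70, SE 0.0778, adjusted p = 1.77e-06), and 29.3% of TRAP1 exon bases lie opposite exons of DNASE1. HSPE1, the lid of the mitochondrial chaperonin, had 30.6, 28.5 and 30.6 CPM in the ARD1 libraries and 40.3, 50.1 and 49.1 CPM in the control libraries (-0.64, SE 0.0946, adjusted p = 3.20e-05). HSPD1, the barrel of the same chaperonin, had 634, 619 and 652 CPM in the ARD1 libraries and 662, 718 and 740.1 CPM in the control libraries. Its groups did not overlap, but the difference did not pass (-0.15, SE 0.0682, adjusted p = 0.0593), while it passed as lower in 6 of the 17 other settings. With all libraries these included RLE scaling (adjusted p = 0.0438), DESeq2 (0.0291), no count filter (0.0491) and GC and length offsets (0.00293). Without control replicate 1 the log2 fold change of HSPD1 was -0.21 (adjusted p = 3.02e-05), and the highest adjusted p over the settings was 0.185. HSPD1 and HSPE1 lie on opposite strands of chromosome 2, HSPD1 at 197486581 to 197516737 (minus) and HSPE1 at 197499994 to 197503457 (plus). By these bounds HSPE1 lies within HSPD1, and 14.2% of HSPE1 exon bases lie opposite HSPD1 exons. HSPA9, the mitochondrial HSP70 that pulls in imported proteins, averaged 347 ± 3.66 CPM in the ARD1 libraries and 321 ± 8.44 CPM in the control libraries (0.11, adjusted p = 0.148). The groups did not overlap for HSPA9, and it passed as higher with upper-quartile scaling and with library totals. DNAJA3, the J protein of HSPA9, averaged 149 ± 2.72 CPM in the ARD1 libraries and 138 ± 9.39 CPM in the control libraries (0.12, adjusted p = 0.163). DNAJA3 passed as higher in 4 of the 17 other settings.

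The transcript of the main regulator did not pass. HSF1 had 170.5, 181 and 167 CPM in the ARD1 libraries and 189, 149 and 155 CPM in the control libraries, with the ARD1 values between control replicate 1 and the other controls (0.07, SE 0.0864, adjusted p = 0.475). It passed as higher without control replicate 1 (0.17, adjusted p = 0.00180), with library totals and once GC and length trends were taken out (0.57, adjusted p = 8.57e-08), and over the other settings the adjusted p reached 0.997. HSF1 is controlled largely at the level of the protein, which was not measured. HSF2, a factor of development that can pair with HSF1, had 18.2, 19.0 and 19.0 CPM in the ARD1 libraries and 11.4, 14.3 and 15.3 CPM in the control libraries. It was higher in every ARD1 library (0.46, SE 0.114, adjusted p = 0.00274).

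Ratios of counts between members of the same library need no scaling between libraries, and 7 pairs of related genes were compared this way. With 3 libraries against 3, the exact two-sided permutation test cannot give less than p = 0.1, so no pair could pass. HSP90AA1 had 0.856, 0.856 and 0.915 counts per count of HSP90AB1 in the ARD1 libraries, against 0.422, 0.661 and 0.696 in the control libraries. The inducible form thus made up more of the HSP90 counts in every ARD1 library (log2 difference 0.60, exact permutation p = 0.1, adjusted p = 0.117 over the pairs). HSPA1A and HSPA1B together had 0.212, 0.2005 and 0.2005 counts per count of HSPA8 in the ARD1 libraries and 0.255, 0.223 and 0.223 in the control libraries, so the inducible HSP70 counts were the smaller against HSPA8 in every ARD1 library (log2 difference -0.19, exact permutation p = 0.1). HSPD1 had 20.8, 21.7 and 21.3 counts per count of HSPE1 in the ARD1 libraries and 16.4, 14.3 and 15.1 in the control libraries (log2 difference 0.48, exact permutation p = 0.1). HSPA1A had 1.15, 1.18 and 1.11 counts per count of HSPA1B in the ARD1 libraries and 1.55, 1.56 and 1.603 in the control libraries (log2 difference -0.46, exact permutation p = 0.1), with the limit on these copies given above. The log2 ratio of CRYAB to HSPB1 was lower by 4.28 and that of HSF1 to HSF2 lower by 0.39 in the ARD1 libraries, each without overlap (exact permutation p = 0.1). The groups overlapped in 1 pair, DNAJB1 to DNAJA1 (log2 difference 0.25, exact permutation p = 0.2). Of all single genes tested 69.6% did not overlap, and the share for ratios of other gene pairs was not examined. Leaving out control replicate 1 moved 4 of the 7 differences by over 1.5 times. Without it the log2 difference was 0.369 for HSP90AA1 to HSP90AB1, -0.125 for the inducible HSP70 genes to HSPA8, 0.382 for DNAJB1 to DNAJA1 and -0.157 for HSF1 to HSF2.

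**Figure D3:**
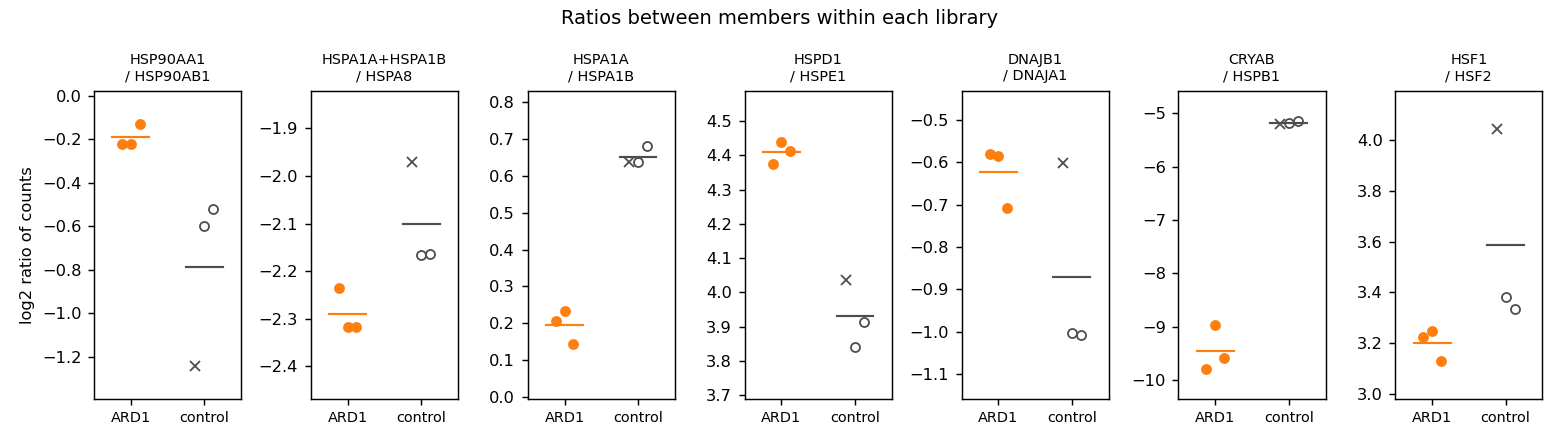
Log2 ratio of counts between the named members within each library, for the ARD1 libraries (left, filled) and the control libraries (right, open, with control replicate 1 as a cross). Horizontal bars are means of 3 libraries, and each panel has its own axis. The groups are apart in 6 of the 7 pairs and overlap for DNAJB1 to DNAJA1.

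Levels of different genes were compared as CPM per kilobase of the longest annotated transcript. In the ARD1 libraries CCT3 stood highest with a mean of 371, followed by HSPA8 with 336, HSP90AB1 with 309.8 and HSPD1 with 259. In the control libraries HSPA8 came first with 607.5, followed by HSP90AB1 with 539, HSPB1 with 413.5 and CCT3 with 367. HSPB1 was 7th in the ARD1 libraries, with 167, and 3rd in the control libraries. CCT3 itself did not pass, at a log2 fold change of 0.02, and the places depend on which transcript length is used. The lowest gene was DNAJA4 in each group, at 0.207 in the ARD1 libraries and 0.123 in the control libraries.

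**Figure D4:**
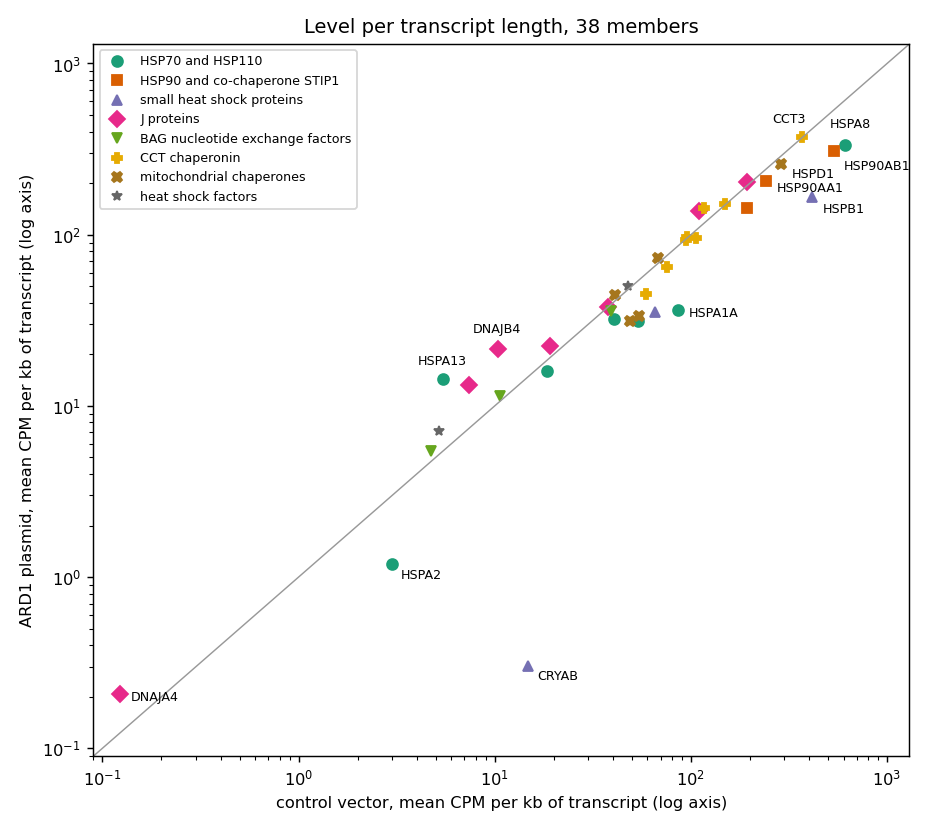
Mean CPM per kilobase of transcript of each of the 38 genes in the ARD1 libraries (vertical) against the control libraries (horizontal), on log axes, with markers by class. The line marks equal levels. HSPA8, HSP90AB1 and HSPB1 lie below it at the high end, CCT3 lies on it, CRYAB lies far below it, and HSPA13 and DNAJB4 lie above it.

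How far these directions rest on scaling differed between the genes. With library totals the median log2 fold change of all genes was 0.30, against 0.03 with TMM factors, 18 members were higher and 11 lower, and 48.1% of all genes were higher and 22.0% lower. Of the 14 genes that fell, 11 passed as lower in every one of the 17 other settings, namely HSPA1A, HSPA1B, HSPA2, HSPA8, HSP90AB1, STIP1, HSPB1, HSPB8, CRYAB, HSPE1 and TRAP1. Of the 7 that rose, HSPA13, DNAJB1, DNAJB2, DNAJB4, CCT6A and HSF2 passed as higher in all 17. The size of some of these changes was less stable than their direction. Over the settings the smallest falls were -0.15 for STIP1, -0.38 for HSPE1, -0.43 for TRAP1, -0.45 for HSPA1B and -0.53 for HSP90AB1. Rises ran from 0.27 to 0.59 for DNAJB1, from 0.23 to 0.57 for CCT6A and from 0.33 to 0.72 for HSF2. Without control replicate 1 there were 9 higher and 18 lower, beside 33.2% and 34.1% of all genes, with HSF1, DNAJA3, HSPH1, HSP90AA1, CCT4 and HSPD1 added. The genes that fell had a median GC content of 51.9%, those that rose 44.1% and those that did not pass 45.2%, beside 48.4% over the 15238 genes with a value. With GC and length trends removed 10 members were higher and 18 lower, beside 35.6% and 31.9% of all genes, and none of the 21 calls was lost.

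**Figure D5:**
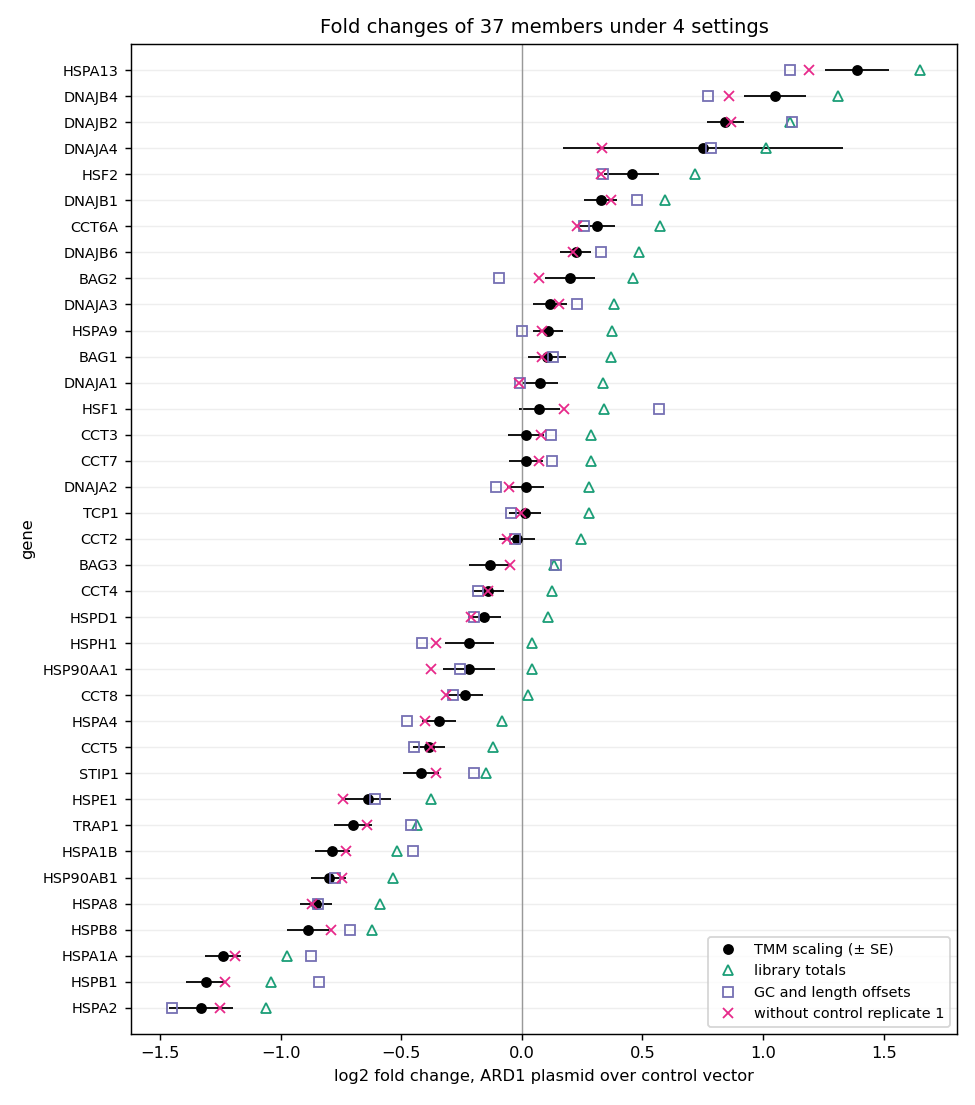
Log2 fold change, ARD1 plasmid over control vector, of 37 of the 38 genes under 4 settings. CRYAB, at -5.57, is left out so that the others can be read. Filled circles with bars are the TMM values with their SE, and triangles, squares and crosses are library totals, GC and length offsets, and the fit without control replicate 1. Library totals shift all genes to the right, and the falls of HSPA2, HSPB1, HSPA1A, HSPB8 and HSPA8 stay below 0 in all 4.

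A wider list of 87 other genes of the folding machinery had 81 genes past the count filter, of which 26 were higher and 29 lower, beside 32.4% higher and 32.2% lower of all genes tested. Their median log2 fold change was 0.03, the same to 2 decimals as over all genes tested. HSP90 co-chaperones had 3 of 14 higher and 7 lower, prefoldin and CCT partners 5 of 14 higher and 1 lower, and mitochondrial import and folding genes 6 of 12 higher and 3 lower. Other J proteins had 7 of 22 higher and 9 lower. Of 3 other small heat shock genes past the filter, 0 were higher, 1 was lower and 2 did not pass. HSPB7, a small heat shock protein of heart and muscle, had 5, 3 and 3 counts in the ARD1 libraries and 91, 73 and 55 counts in the control libraries (log2 fold change -4.47, SE 0.371, adjusted p = 7.95e-08). Like CRYAB it had few counts in every ARD1 library. DNAJB13, a J protein of cilia and sperm, and DNAJC17, a nuclear J protein, were lower at -2.13 (adjusted p = 1.38e-05) and -1.40 (adjusted p = 1.09e-06). HSPA4L, an HSP110 protein related to HSPA4, had 51.9, 45.2 and 52.3 CPM in the ARD1 libraries and 16.0, 22.1 and 23.5 CPM in the control libraries. It rose where HSPA4 fell (1.28, SE 0.122, adjusted p = 3.70e-07). DNAJC6, which uncoats clathrin vesicles with HSPA8, rose by 2.41 (adjusted p = 3.23e-07), and PAM16, part of the mitochondrial import motor of HSPA9, by 1.04 (adjusted p = 0.000284).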

How the data were processed

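RNA was depleted of rRNA and made into directional libraries, per the labels' protocols, and cutadapt 4.6, STAR 2.7.11b and GRCh38 are named in the submitters' processing notes. The sources used here do not give the counting program, strand setting or annotation release. The deposited values are raw whole-number counts per Ensembl gene, each gene with 2 or more counts over the 6 libraries. Symbols matched 25052 of 25071 identifiers.

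Groups came from the sample titles. Genes kept by filterByExpr were scaled by TMM and compared with edgeR 4.0.16 (R 4.3.3) in the quasi-likelihood test, with Benjamini-Hochberg adjustment over 15816 genes. Fold changes set ARD1 over control, SEs come from the F statistic, and errors of means are SD with n = 3. Coordinates, exon overlaps, GC and length are from GENCODE 29. Of the 38 genes, 16 have named pseudogene copies there, 92 in all, of which 0 are in the table, so reads from them cannot be told apart. Pair ratios used 0.5 added to each count. The fits were also run on simulated counts in which few genes changed and neither a GC trend nor an outlying library was set. These settings differ from the data, so the simulation cannot judge the scaling or the offsets.

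All 38 members are named, and of the wider list up to 5 genes in each direction with the smallest p among those changed by 1 or more on the log2 scale. Members and lists were chosen with earlier results of these data known.

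Alternatives were RLE, upper-quartile and total scaling, TMM and totals computed without NAA10, DESeq2 1.42.0, limma 3.58.1 (voom), no filter, 1 CPM in 3 libraries, a replicate block, loess offsets (span 0.5) for GC and transcript length, known for 96.3% of tested genes, without and with the block, a minimum log2 change of 1, and each library left out.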

Additional observations from a re-analysis of the deposited data

How the results depend on the processing

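Of the 21 members that passed, 17 passed in the same direction in all 17 other settings, the exceptions being HSPA4, CCT5 and CCT8 with library totals, CCT8 without ARD1 replicate 1 and DNAJB6 without control replicate 2. Low counts limit DNAJA4 and, in the ARD1 libraries, CRYAB. Without a stated counting method, reads shared between HSPA1A and HSPA1B, with pseudogene copies or between overlapping genes could not be separated.

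With library totals 18 members were higher and 11 lower, against 7 and 14 with TMM factors. Of the wider list 39 genes were higher and 18 lower with library totals, against 26 and 29. Of all genes 48.1% were higher and 22.0% lower with library totals, against 32.4% and 32.2%. A minimum log2 change of 1, with TMM factors, left 2 members higher and 4 lower, and 3 genes of the wider list in each direction. With GC and length offsets HSPA1A (-0.873), HSPB1 (-0.842) and DNAJB4 (0.771) were short of that size and DNAJB2 (1.12) reached it. With library totals HSPA1A (-0.974) was short of it and DNAJB2 (1.11) reached it. With library totals the class medians of the log2 fold change were -0.518 for HSP70 and HSP110, -0.15 for HSP90 and STIP1, -1.04 for small heat shock proteins, 0.592 for J proteins, 0.369 for BAG factors, 0.261 for CCT, 0.108 for mitochondrial chaperones and 0.529 for heat shock factors, of which CCT and the mitochondrial class had turned direction. With GC and length offsets, they were -0.477 for HSP70 and HSP110, -0.257 for HSP90 and STIP1, -0.842 for small heat shock proteins, 0.479 for J proteins and 0.453 for heat shock factors. Single genes that turned direction with library totals were HSPH1 (0.0423), HSP90AA1 (0.0401), BAG3 (0.135), CCT2 (0.245), CCT4 (0.125), CCT8 (0.0265) and HSPD1 (0.108). With GC and length offsets they were DNAJA1 (-0.0092), DNAJA2 (-0.108), BAG2 (-0.0967), BAG3 (0.142), TCP1 (-0.0441) and HSPA9 (-0.000496). With RLE they were DNAJA2 (-0.00172), TCP1 (-0.00483), CCT3 (-0.00046) and CCT7 (-0.000344), and with DESeq2 the same 4 genes (-0.00169, -0.0048, -0.000459 and -0.000342). TCP1 turned without a filter (-0.000827) and CCT2 with upper-quartile scaling (0.0234). Apart from CCT8, none of these had passed with TMM factors, and the cause was not tested.

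Same-numbered ARD1 and control libraries did not deviate together (r = 0.017, -0.036 and 0.034 across genes), so the numbers were not taken as pairs. A replicate block left 7 members higher and 16 lower, with HSPH1 and HSP90AA1 added, and turned no member. The block together with GC and length offsets gave 10 higher and 18 lower, class medians of -0.478 for HSP70 and HSP110, -0.246 for HSP90 and STIP1, -0.842 for small heat shock proteins, 0.480 for J proteins and 0.454 for heat shock factors, and turned DNAJA1 (-0.00917), DNAJA2 (-0.107), BAG2 (-0.0978), BAG3 (0.143) and TCP1 (-0.0431).

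With each library left out in turn, 6 to 9 members were higher and 13 to 18 lower, and 21 to 27 genes of the wider list were higher and 26 to 33 lower. The log2 fold change crossed 0 for DNAJA1 (-0.0119 to 0.0932), DNAJA2 (-0.053 to 0.0448), TCP1 (-0.0163 to 0.034), CCT2 (-0.0874 to 0.0284), CCT3 (-0.0508 to 0.0804), CCT7 (-0.0545 to 0.0704) and HSF1 (-0.0183 to 0.173). It kept its direction but varied widely for DNAJA4 (0.0481 to 1.17) and BAG2 (0.0724 to 0.244). All 7 pair ratios kept their direction with each library left out.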
